A study of Mus musculus with 1646 samples.

Results

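The platelet-derived growth factor (PDGF) family was followed through the mesenchymal cells of the mouse colon. The 6 genes were those rows of the colon count table whose Ensembl identifier carries the symbol *Pdgfra*, *Pdgfrb*, *Pdgfa*, *Pdgfb*, *Pdgfc* or *Pdgfd* in the mouse gene annotation, 6 of 46517 genes. Each of the 1646 colon cells was a separate SmartSeq2 library, that is, full-length cDNA of 1 sorted cell, from adult male mice of 10 to 20 weeks on the C57Bl6/J background. The study asked how fibroblasts and mural cells, the pericytes and smooth muscle cells (SMC) of vessel walls and tissue, differ in their gene expression. Cells were sorted into multi-well plates on reporter fluorescence or on antibodies to PDGFRα or PDGFRβ, with CD31 used to leave endothelial cells out, and the study then removed cells without expression of either receptor.

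The labels name 4 reporter lines. PdgfrbGFP (46.2% of the cells, 4 plates) carries an eGFP transgene under *Pdgfrb* sequences, and PdgfraGFP (13.8%, 2 plates) carries a nuclear EGFP in the *Pdgfra* gene itself. Acta2GFP (34.4%, 2 plates) carries a GFP transgene under the smooth muscle actin promoter, and Cspg4dsRED (5.53%, 1 plate) a DsRed transgene under *Cspg4*, the gene of the NG2 proteoglycan. A fluorescent protein marks the cells that use the named promoter, so each line offers the sorter other cells. Acta2GFP tissue was digested with added elastase. No line is without a reporter, and the labels name no mouse, so each line was taken as 1 sample and p-values measure the spread between lines, which may be technical in part.

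The authors' 8 clusters were used as deposited. By the study's names, the fibroblasts run from the crypt base (cluster 7, 13.5% of the cells) over base to middle (cluster 5, 25.8%), middle (cluster 1, 29.3%) and middle to apex (cluster 6, 2.73%) to the crypt apex (cluster 2, 7.96%). Pericytes are cluster 4 (8.63%), vascular SMC cluster 3 (8.57%) and interstitial SMC cluster 8 (3.402%), so that 1307 of the 1646 cells are fibroblasts and 20.6% are mural cells. Levels are counts per 500000 gene counts of a cell, averaged over the cells of a cluster in each line with at least 10 of them and then over lines, with the SD over lines. Gene counts per cell ran from 47598 to 1494292 (median 248628). Markers of the names were found: *Ptgs2* averaged 1093 in cluster 2 and at most 46.1 elsewhere, *Rgs5* 3262 in cluster 4, and *Acta2* 3588 in cluster 3 and 5114 in cluster 8. *Cd34* averaged 1293 in cluster 7, 1026 in cluster 5 and 595.1 in cluster 1. Of the other crypt base markers, *Wnt2* was highest in cluster 7 (90.96). *Wnt2b* and *Sfrp1* were 30.2 and 99.1 in cluster 7, against 99.1 and 556.25 in cluster 1. Of the 3 mural markers, cluster 8 had little *Notch3* (0.229) but 155.6 of *Mcam* and 200.5 of *Des*, against at most 3.29 and 52.7 in the fibroblast clusters. Its fibroblast list summed to 2085, against 5317 to 10798 in the fibroblast clusters, and 52 of its 56 cells had more counts of the fibroblast marker list than of the mural and pericyte lists. In cluster 4, 17 cells were likewise led by fibroblast markers (median 6375 against 79.98 for the mural and pericyte lists), whereas the medians of its other cells were 1232 and 6311. In cluster 3, 4 cells were led by fibroblast markers. Levels of cluster 4 are therefore given with and without them. Of other cells, the 4 immune markers summed to at most 26.6 in any cluster and line, the 4 epithelial markers to 34.5, the 4 markers of glia and neurons to 35.3 and the 3 platelet markers to 19.045, with *Ptprc*, *Cd3e*, *Cdh1* and *Ppbp* under 1 in each. *Kit* and *Ano1*, markers of interstitial cells of Cajal, summed to at most 219.65 in fibroblasts and 447.2 in mural cells, where cluster means of *Kit* were at most 8.85. Their part in the PDGF levels was not tested.

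PDGFs are secreted dimers that bind a pair of receptor tyrosine kinases. PDGF-A and PDGF-C act mainly through PDGFRα, PDGF-B through both receptors and PDGF-D mainly through PDGFRβ, and PDGF-C and PDGF-D are secreted as latent forms that proteases must cut. In the gut, epithelial PDGF-A instructs the PDGFRα-expressing mesenchyme under the epithelium, and endothelial PDGF-B recruits pericytes through PDGFRβ. The epithelial and endothelial sources of ligand were left out by the sort, so only the stromal side of the family is described.

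*Pdgfra*, the gene of PDGFRα, was a fibroblast gene that peaked at the crypt apex. Its level in cluster 2 was 1076 in PdgfrbGFP, 1284 in Acta2GFP and 765.7 in PdgfraGFP (mean 1042 ± 260.9, SD, n = 3 lines). In cluster 6 it was 760.95 in Acta2GFP and 452.6 in PdgfraGFP (606.8 ± 218.03, n = 2). The 3 lower fibroblast clusters were close to each other, with 232.9 ± 42.7 (n = 4) in cluster 5, 204.6 ± 27 (n = 3) in cluster 7 and 190.9 ± 37.5 (n = 3) in cluster 1. The 10 line values of those clusters ran from 155.2 to 268.8, so every value of clusters 2 and 6 lay above all of them. In the mural clusters the level was 16.2 in cluster 8 (1 line), 16.1 ± 22 (n = 2) in cluster 4 and 4.47 ± 5.58 (n = 3) in cluster 3. *Pdgfra* lies on the plus strand of chromosome 5 (GRCm38, chr5:75152292-75198215).

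The *Pdgfra* of the pericyte cluster sat in few cells. In cluster 4 the level was 31.6 in PdgfrbGFP and 0.480 in Cspg4dsRED. The 17 cells led by fibroblast markers averaged 192.2 and held all 5 cells of the cluster with at least 100 counts of *Pdgfra*, whereas the other cells of the cluster averaged 2.99. Without those 17 cells, the level of the PdgfrbGFP line in cluster 4 was 3.85. In cluster 8, 41 of the 52 Acta2GFP cells had a count (78.8%), with a median of 5.65. Acta2GFP cells of cluster 3 were alike in this (82.8% with a count, median 6.21), whereas 43.9% of the PdgfrbGFP and 10% of the Cspg4dsRED cells of cluster 3 had a count. Whether fibroblast RNA in those wells had a part in the mural counts was not tested.

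*Pdgfrb*, the gene of PDGFRβ on chromosome 18, was found in every cluster and was highest in pericytes. Its level in cluster 4 was 1138 in PdgfrbGFP and 1132 in Cspg4dsRED (1135 ± 4.67, n = 2), and 1207 without the 17 cells led by fibroblast markers. Vascular SMC of cluster 3 had 554.6 in PdgfrbGFP, 337.3 in Acta2GFP and 396.04 in Cspg4dsRED (429.3 ± 112.4, n = 3). No line value of cluster 3 reached those of cluster 4. The interstitial SMC of cluster 8 had 93.6 over the Acta2GFP cells and 317.4 over the 4 PdgfrbGFP cells. The Acta2GFP value was below that of the same line in cluster 3 and within the range of its fibroblast clusters.

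Among fibroblasts, *Pdgfrb* was 234.4 ± 71.5 (n = 3) in cluster 2, 184.5 ± 76 (n = 3) in cluster 1, 151.8 ± 72.6 (n = 4) in cluster 5, 124.05 ± 30.4 (n = 2) in cluster 6 and 98.6 ± 56.2 (n = 3) in cluster 7. In clusters 1, 5 and 7 the PdgfrbGFP line was highest, with 271.4, 226.6 and 163.3. Acta2GFP had 151.4, 86 and 70.9 in the same clusters, and PdgfraGFP 130.75, 93.4 and 61.7. Per kilobase of exon, the fibroblasts as a class had means of 30.2 counts per 500000 for *Pdgfra* and 31.2 for *Pdgfrb*, but the lines went opposite ways. *Pdgfra* and *Pdgfrb* per kilobase were 26.2 and 43.5 in PdgfrbGFP, 25.4 and 32.4 in Cspg4dsRED, 32.1 and 20.5 in Acta2GFP and 37.1 and 28.4 in PdgfraGFP. In cluster 2 the values per kilobase were 103.95 for *Pdgfra* and 42.8 for *Pdgfrb*, and in cluster 4 they were 1.60 and 207.2, or 0.216 and 220.4 without the 17 cells led by fibroblast markers.

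**Figure D1:**
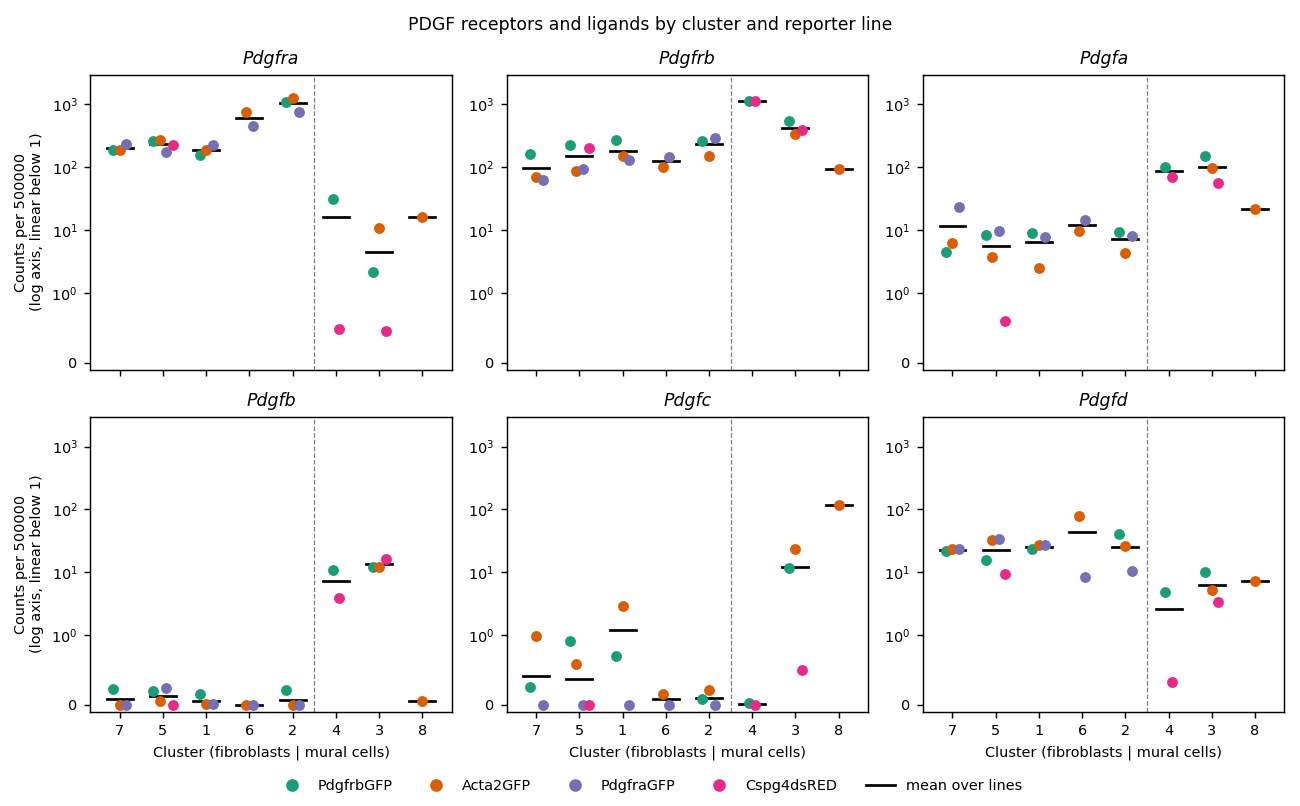
Level of each PDGF gene by cluster, in counts per 500000 gene counts of a cell (log axis, linear below 1). Each point is a reporter line with at least 10 cells of the cluster and each bar the mean over lines. *Pdgfra* is highest in cluster 2 (1042), *Pdgfrb* in cluster 4 (1135), *Pdgfa* and *Pdgfb* are highest in clusters 3 and 4, *Pdgfc* in cluster 8 (118.9), and *Pdgfd* is higher in the fibroblast clusters than in the mural ones in most lines.

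*Pdgfa* encodes the PDGF-A chain and lies on the minus strand (chr5:138976014-138997370). It was a mural transcript. Its level in vascular SMC of cluster 3 was 149.7 in PdgfrbGFP, 98.2 in Acta2GFP and 55.5 in Cspg4dsRED (101.2 ± 47.1, n = 3). Pericytes of cluster 4 had 102.3 in PdgfrbGFP and 69 in Cspg4dsRED (85.7 ± 23.6, n = 2), and cluster 8 had 21.8. Without the 17 cells led by fibroblast markers, PdgfrbGFP had 117.1 in cluster 4. The fibroblast clusters averaged 5.62 to 12, and the highest fibroblast value of any line, 23.6 in cluster 7 of PdgfraGFP, was below every value of clusters 3 and 4. Of the exon bases of *Pdgfa*, 26.1% are shared with the antisense gene *6330403L08Rik*, whose own level was 0 to 17.1 and was highest in the same mural clusters. No source says that counting used the strand, and reads of the pair cannot then be told apart.

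*Pdgfb* encodes the PDGF-B chain (minus strand, chr15:79995874-80014977) and was found at low levels in mural cells of vessels. In cluster 3 the level was 12.1 in PdgfrbGFP, 12.1 in Acta2GFP and 16.3 in Cspg4dsRED (13.5 ± 2.45, n = 3). In cluster 4 it was 10.7 in PdgfrbGFP and 3.91 in Cspg4dsRED (7.30 ± 4.79, n = 2), and 12.3 in PdgfrbGFP without the 17 cells led by fibroblast markers. In lines with at least 10 cells of a cluster, it was at most 0.235 in the fibroblast clusters and 0.0458 in cluster 8. The 8 Cspg4dsRED cells of cluster 1, too few to enter the mean, had 3.08. These means rested on few cells: 14 cells of cluster 3 (9.93%) and 2 of cluster 4 (1.41%) had at least 20 counts. In PdgfrbGFP, 1 cell of cluster 4 reached 703.4 counts per 500000. Among fibroblasts, 0 of 1307 cells had 20 counts, which allows a share of up to 0.230%. Because *Pdgfb* is best known from endothelium, endothelial markers were counted in the same cells: 3 of the 16 mural cells with at least 20 counts of *Pdgfb* had a count of *Cdh5* (18.8%) and 12 had one of *Pecam1*. Of the mural cells below 20, 17.96% had a count of *Cdh5* and 82.7% one of *Pecam1*. *Cdh5* averaged 0 to 0.687 over the clusters and *Pecam1* 5.80 to 12.9. The sum of the 12 endothelial genes was 156.4 to 390.8 over the fibroblast sums and 250.3 to 940.7 over the mural sums, of which *Esam* had cluster means of 362.7 in cluster 3, 495.7 in cluster 4 and 143.3 in cluster 8. What part endothelial RNA had in *Pdgfb* was not tested.

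*Pdgfc* encodes the PDGF-C chain (plus strand, chr3:81036416-81214040) and had its highest mean level in interstitial SMC. Its level in cluster 8 was 118.9 over the 52 Acta2GFP cells and 32.1 over the 4 PdgfrbGFP cells, too few to enter the mean. In cluster 3 it was 11.7 in PdgfrbGFP, 23.5 in Acta2GFP and 0.502 in Cspg4dsRED (11.9 ± 11.5, n = 3). Only 1 count was found in the cells of cluster 4. Fibroblasts had 0.679 in PdgfrbGFP, 1.47 in Acta2GFP and 0 in PdgfraGFP and Cspg4dsRED. At least 20 counts were present in 24 of 56 cells of cluster 8 (42.9%, 95% interval 29.7 to 56.8), in 8 cells of cluster 3 (5.67%) and in 8 of 1307 fibroblasts. Of the 56 cells of cluster 8, 52 came from Acta2GFP, so the mean of the cluster is that of 1 line. Within Acta2GFP alone, the level of cluster 8 (118.9) was above that of cluster 3 (23.5) and of each fibroblast cluster (0.151 to 2.87).

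*Pdgfd* encodes the PDGF-D chain (plus strand, chr9:6168584-6378850) and had the highest level of the ligands in fibroblasts. Its fibroblast level was 20.4 for PdgfrbGFP, 28.3 for Acta2GFP, 22.6 for PdgfraGFP and 32.1 for Cspg4dsRED (25.9 ± 5.34, n = 4), against 7.12 in PdgfrbGFP, 6.28 in Acta2GFP and 1.78 in Cspg4dsRED mural cells (5.06 ± 2.87, n = 3). Every fibroblast value was above every mural one. Along the crypt the mean levels lay near each other, with 22.8 ± 1.198 (n = 3) in cluster 7, 22.7 ± 12.3 (n = 4) in cluster 5, 25.6 ± 2.10 (n = 3) in cluster 1 and 25.5 ± 14.7 (n = 3) in cluster 2. Cluster 6 had 78.9 in Acta2GFP and 8.36 in PdgfraGFP, so its mean of 43.6 says little. The transcript was patchy: 615 of 1307 fibroblasts had a count and 14.2% had at least 20. In the pericyte cluster, the 17 cells led by fibroblast markers averaged 24.2 and the other cells averaged 0.879. Per kilobase of exon, *Pdgfd* in fibroblasts was 8.20, above *Pdgfa* at 2.08 and *Pdgfc* at 0.105, whereas in cluster 3 *Pdgfa* was 32.4, *Pdgfb* 3.24, *Pdgfc* 2.34 and *Pdgfd* 1.97.

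The promoters of 4 members are shown, whose highest mean levels lay in different clusters or classes: *Pdgfra* in fibroblasts of the apex, *Pdgfa* in vascular SMC, *Pdgfc* in interstitial SMC and *Pdgfd* in fibroblasts. The promoter of *Pdgfrb*, the gene with its highest mean level in pericytes, was left out. For *Pdgfc* and *Pdgfd* the differences between fibroblasts and mural cells did not pass the test given further on. The 250 bases before the RefSeq start (GRCm38.p6) are written 5′ to 3′ on the strand of the gene, with searched motifs in capitals. The motifs were the CArG box, the site of serum response factor in many smooth muscle genes, TATAAA, and GGGCGG, the GC box, each read on both strands.
Pdgfra (chr5:75152001-75152250, plus strand): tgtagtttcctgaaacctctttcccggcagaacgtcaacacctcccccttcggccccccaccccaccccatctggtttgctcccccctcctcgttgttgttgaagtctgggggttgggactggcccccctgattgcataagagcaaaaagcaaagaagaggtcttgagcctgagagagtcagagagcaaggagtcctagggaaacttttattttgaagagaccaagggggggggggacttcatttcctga
Pdgfa (chr5:138994945-138995194, minus strand): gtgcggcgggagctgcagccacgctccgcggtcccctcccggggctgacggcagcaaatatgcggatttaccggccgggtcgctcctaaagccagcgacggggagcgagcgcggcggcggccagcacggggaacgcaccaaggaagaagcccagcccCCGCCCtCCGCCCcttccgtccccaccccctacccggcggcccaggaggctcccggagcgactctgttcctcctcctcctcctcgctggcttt
Pdgfc (chr3:81036166-81036415, plus strand): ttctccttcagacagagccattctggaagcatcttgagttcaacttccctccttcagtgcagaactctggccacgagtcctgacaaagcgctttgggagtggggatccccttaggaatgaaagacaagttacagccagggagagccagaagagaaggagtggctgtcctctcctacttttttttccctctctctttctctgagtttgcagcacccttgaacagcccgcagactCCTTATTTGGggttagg
Pdgfd (chr9:6168236-6168485, plus strand): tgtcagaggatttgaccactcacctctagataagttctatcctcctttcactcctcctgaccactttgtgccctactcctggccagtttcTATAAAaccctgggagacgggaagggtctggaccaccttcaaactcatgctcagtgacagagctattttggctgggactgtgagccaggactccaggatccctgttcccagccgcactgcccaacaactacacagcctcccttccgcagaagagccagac
The *Pdgfc* window holds CCTTATTTGG, a CArG box 17 bases before the start, which 1.47% of the 32851 mouse windows of this length hold. The *Pdgfa* window holds the GC box 2 times on the other strand (CCGCCC), 93 and 86 bases before the start, and a second *Pdgfa* start holds it 1 time, 60 bases before (32.7% of windows). The *Pdgfd* window holds TATAAA 160 bases before the start (12.4% of windows), and the *Pdgfra* window holds none of these letters. A match is a description of the sequence, and no binding was measured.

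The comparison of fibroblasts with mural cells set 4 line sums of fibroblasts against 3 of mural cells. *Pdgfra* was 262.4, 321.5, 371.7 and 254.3 in the fibroblasts of PdgfrbGFP, Acta2GFP, PdgfraGFP and Cspg4dsRED, against 18.7 in PdgfrbGFP, 14.1 in Acta2GFP and 0.467 in Cspg4dsRED mural cells. The groups did not overlap, and the log2 fold change was 4.94 (SE 1.00, adjusted p = 0.0175 by edgeR's quasi-likelihood test). *Pdgfrb* went the other way, with 238.04, 112.05, 155.6 and 177.3 in fibroblasts in the same order, against 869.1, 195.3 and 781.4 in mural cells. Here the Acta2GFP mural value, which holds most of cluster 8, fell within the fibroblast range, and the log2 fold change was -1.73 (SE 0.43, adjusted p = 0.0433).

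Both mural ligands of vessels were lower in fibroblasts. *Pdgfa* was 8.11, 4.10, 10.2 and 3.63 in fibroblasts against 121.6, 51.2 and 62.6 in mural cells (log2 fold change -3.49, SE 0.43, adjusted p = 0.00194). *Pdgfb* was 0.178, 0.0206, 0.0701 and 0.881 against 11.1, 4.70 and 9.81 (log2 fold change -6.37, SE 1.34, adjusted p = 0.0212). The groups overlapped for neither gene. The share of all genes without such overlap was not counted, here and for *Pdgfra* and *Pdgfd*. *Pdgfc* (-5.66, SE 1.94, adjusted p = 0.125) and *Pdgfd* (1.98, SE 0.54, adjusted p = 0.0611) did not pass. Both passed with DESeq2 (adjusted p = 0.0182 and 0.00206) and with edgeR on sums by plate (0.0125 and 0.0278). Thus 4 of 6 members were called, 1 higher and 3 lower in fibroblasts, where 6.57% of the 19173 genes tested were called, 3.21% higher and 3.36% lower. Without PdgfrbGFP the adjusted p was 0.077 for *Pdgfra*, 0.198 for *Pdgfrb* and 0.173 for *Pdgfb*. Without Acta2GFP it was 0.105 for *Pdgfra* and 0.0593 for *Pdgfb*, without PdgfraGFP 0.104 for *Pdgfrb* and 0.0563 for *Pdgfb*, and without Cspg4dsRED 0.152 for *Pdgfrb*, all with unchanged sign. With the line as a block, which called 2.99% of genes, *Pdgfb* did not pass (adjusted p = 0.0685). Without the 17 cells of cluster 4 led by fibroblast markers, *Pdgfd* passed (2.28, adjusted p = 0.0219), as it did without the 4 such cells of cluster 3 as well (2.29, adjusted p = 0.0228). These cells were chosen after seeing the data and left out of the mural side alone. The 17 cells averaged 24.2 of *Pdgfd*, against 0.879 in the rest of cluster 4, so leaving them out by itself widens the difference. The 52 of 56 cells of cluster 8 that were likewise led by fibroblast markers were kept.

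Over all 8 clusters, 5 of the 6 members differed (edgeR F test over 21 sums by cluster and line), where 16.6% of 21739 genes did. The adjusted p was 4.0e-04 for *Pdgfra*, 1.5e-04 for *Pdgfrb*, 8.9e-04 for *Pdgfa*, 0.00167 for *Pdgfb*, 0.00212 for *Pdgfc* and 0.271 for *Pdgfd*. As the clusters came from clustering of these very counts, such a test is a description of them and no independent evidence. Without PdgfrbGFP the adjusted p was 0.114 for *Pdgfa* and 0.0829 for *Pdgfc*, and without Acta2GFP, which holds the only usable sum of cluster 8, it was 0.3 for *Pdgfc*. *Pdgfd* passed without the 17 cells named above (0.024), with the same limit on that choice of cells. Of the 42 steps between neighbouring clusters in the order of a gene's levels, 0 passed after adjustment, where 1.85% of genes did over the 21 pairs of clusters, and 4 (9.52%) had an unadjusted p under 0.05, against 12.6% of genes over those pairs, so the order of neighbours is not resolved for any member. The lowest adjusted p of a step was 0.0648, for *Pdgfb* between cluster 4 and cluster 5.

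At the crypt apex *Pdgfra* was the 1 member of 6 that passed. Cluster 2 against the mean of clusters 1, 5 and 7 gave a log2 fold change of 2.43 (SE 0.64, adjusted p = 0.0251), where 6.28% of genes were called, 4.42% higher and 1.86% lower. *Pdgfrb* had 0.87 (SE 0.34, adjusted p = 0.164) and *Pdgfd* 0.09 (SE 0.74, adjusted p = 1). With the line as a block in the fit, *Pdgfra* did not pass (2.10, adjusted p = 0.0568) and *Pdgfrb* did (1.05, adjusted p = 0.0106). Without Acta2GFP the adjusted p of *Pdgfra* was 0.205 (2.25), and without PdgfraGFP it was 0.123 (2.64). Cluster 6 against the same clusters called 0 of 6 members (4.49% of genes), with *Pdgfra* at 1.44 (SE 0.76, adjusted p = 0.338). Without Cspg4dsRED, *Pdgfra* passed there (1.42, adjusted p = 0.0395).

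Within the lower crypt and within the mural cells no member passed. Cluster 7 against cluster 1 called 0.488% of genes, and *Pdgfrb* had a log2 fold change of -0.90 (SE 0.44, adjusted p = 0.57). Pericytes against vascular SMC called 0.819% of genes, with *Pdgfrb* at 1.22 (SE 0.48, adjusted p = 0.295) and *Pdgfa* at 0.09 (SE 0.86, adjusted p = 1). *Pdgfra* had 2.55 in that comparison (SE 1.00, adjusted p = 0.291) and -1.25 (adjusted p = 0.569) without the 17 cells led by fibroblast markers. Interstitial against vascular SMC called 1.01% of genes, with *Pdgfc* at 3.90 (SE 2.13, adjusted p = 0.635) and *Pdgfrb* at -2.09 (SE 0.71, adjusted p = 0.218). Cluster 8 had 1 sum, so this comparison assumes that it varies like the other clusters. In these 4 comparisons (clusters 6, 7, 4 and 8) 0 members passed with edgeR, and the members with an unadjusted p under 0.05 were *Pdgfra*, *Pdgfrb* and *Pdgfc* in pericytes and *Pdgfrb* and *Pdgfb* in interstitial SMC, where 12.7% and 9.51% of all genes had one. With the line as a block, *Pdgfc* passed in pericytes (adjusted p = 0.038), and with sums by plate *Pdgfra* did (adjusted p = 0.00815). Of the 17 cells led by fibroblast markers, the line sums held 14, and the sums of plate_685s and plate_686s held 8 and 5. *Pdgfc* was 0 in all 17 cells, whereas *Pdgfra* averaged 192.2 in them. With DESeq2, *Pdgfc* in pericytes (adjusted p = 0.00487) and *Pdgfb* in interstitial SMC (adjusted p = 0.0451) passed.

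**Figure D2:**
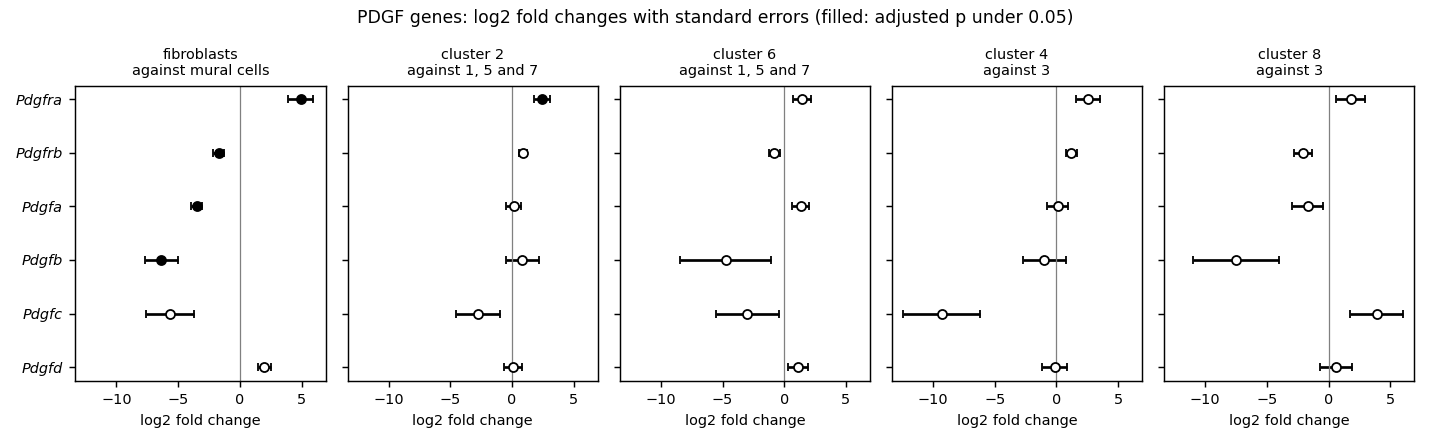
Log2 fold changes of the 6 PDGF genes in 5 comparisons, with standard errors as bars. Filled points had an adjusted p under 0.05: *Pdgfra* (4.94), *Pdgfrb* (-1.73), *Pdgfa* (-3.49) and *Pdgfb* (-6.37) between fibroblasts and mural cells, and *Pdgfra* (2.43) in cluster 2.

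Both receptors were often found in the same fibroblast. At least 1 count of each was present in 1151 of 1307 fibroblasts (88.1%, 95% interval 86.2 to 89.8) and in 42.8% of mural cells (37.4 to 48.2). With at least 20 counts of each, the shares were 48.7% (45.9 to 51.4) and 4.42% (2.497 to 7.19). Lines differed in the fibroblast share, which ran from 71.4% to 98.6% (mean 82 ± 12, n = 4) at 1 count. After each cell was thinned to 50000 gene counts, both receptors were found in 73.7% of fibroblasts and 18.6% of mural cells. The share at 1 count thus moved with the depth given to each cell. Intervals, by the Clopper-Pearson method, cover counting error alone, since the reads carry no molecular identifiers. The study kept cells with either receptor, so absence of both was removed by selection. Even so, 12 cells of the table had no count of either, 4 of them in cluster 1 and 4 in cluster 8.

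The shares of cells with each receptor are given for the fibroblast clusters by line, since the lines differed and make up different parts of each cluster. Cells of a line are not replicates, and no test was made over them. With at least 20 counts as the limit, both receptors were found in 41.4% ± 17.8 of cells of cluster 7 (SD, n = 3 lines), 43.1% ± 21.7 of cluster 5 (n = 4), 39.8% ± 18.1 of cluster 1 (n = 3), 33.5% ± 9.25 of cluster 6 (n = 2) and 72.4% ± 17.7 of cluster 2 (n = 3). The lines of cluster 5 ran from 23.4% to 72.3%, so clusters 7, 5 and 1 lay well within the spread of each other. With all cells of a cluster pooled, the shares were 40.8%, 51.5%, 45.1%, 35.6% and 70.2%, which puts clusters 7 and 1 in the other order. In cluster 2 the share was 90% in PdgfrbGFP, 54.5% in Acta2GFP and 72.7% in PdgfraGFP, against 60.6%, 31.03% and 27.7% of the same lines in cluster 1. Pooled over lines, *Pdgfra* alone was found in 25 of 45 cells of cluster 6 (55.6%, 95% interval 40 to 70.4) and 28.2% of cluster 2, where *Pdgfrb* alone was found in 1 cell. Mural cells were the reverse, with *Pdgfrb* alone in 85.9% of cluster 4 and 86.5% of cluster 3. In cluster 8, *Pdgfrb* alone was found in 28.6% and neither receptor reached 20 counts in 66.1%, at a median depth of 118252 gene counts against 359677 in cluster 3. Of the cells with a count of either receptor, *Pdgfra* was above *Pdgfrb* per kilobase in 86.9% ± 10.7 (SD over lines) in cluster 2 and 76.5% ± 4.90 in cluster 6, against 40.4% ± 19.9 in cluster 1, 54.7% ± 17.9 in cluster 5 and 59.7% ± 18.8 in cluster 7.

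Within a cluster and a plate, the level of one receptor said little about the other. Over 18 sets of fibroblasts of 1 cluster and 1 plate, Spearman's rho between *Pdgfra* and *Pdgfrb* over cells had a median of 0.0411 and ran from -0.363 to 0.384. The cells of a set share plate and line, and rho is given as a description without a test.

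**Figure D3:**
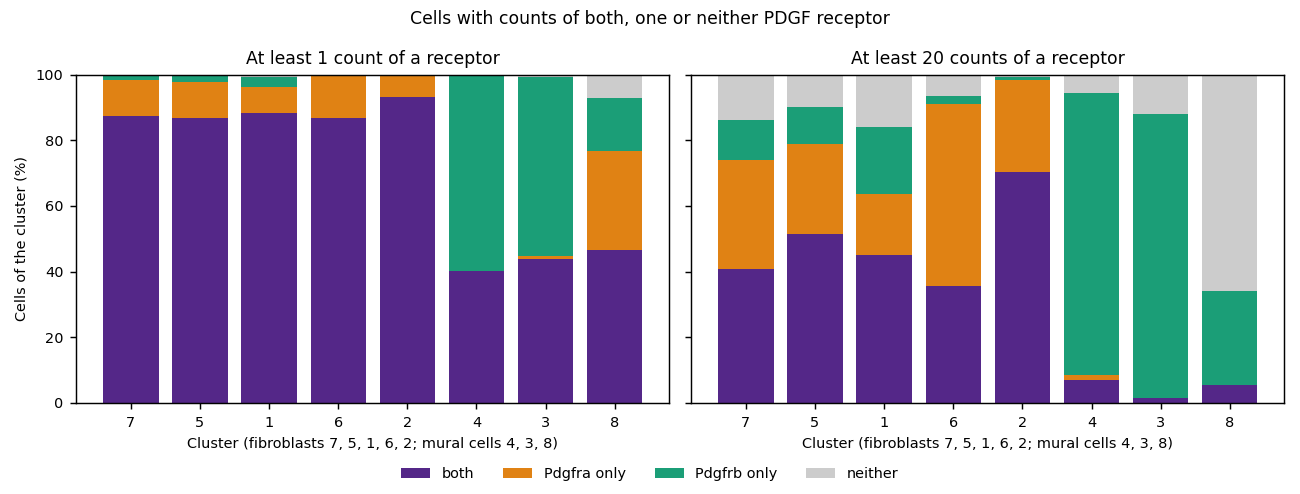
Share of the cells of each cluster, pooled over lines (%, axis from 0), with both receptors, 1 receptor or neither, at limits of at least 1 and 20 counts. The share with both falls with the limit, from 88.1% to 48.7% and 20.5% over all fibroblasts, and is highest in cluster 2 at each limit (93.1%, 70.2% and 44.3%).

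Ligand and receptor transcripts also met in single cells. As 87.9% of the cells of cluster 3 and 92.96% of cluster 4 had at least 20 counts of *Pdgfrb*, most mural cells of vessels with a ligand also had this receptor. In cluster 3, 77 cells (54.6%) had at least 20 counts of both *Pdgfa* and *Pdgfrb*, and in cluster 4 all 42 cells with 20 counts of *Pdgfa* also had 20 of *Pdgfrb*. *Pdgfa* together with *Pdgfra*, the receptor that PDGF-A binds, was found in 2 mural cells and 53 of 1307 fibroblasts. Of the fibroblasts with 20 counts of *Pdgfa*, 82.8% had 20 of *Pdgfra*, against 74.4% of those with fewer counts of *Pdgfa*. All 16 mural cells with 20 counts of *Pdgfb* also had 20 of *Pdgfrb*. Of the fibroblasts with 20 counts of *Pdgfd*, 63.98% also had 20 of *Pdgfrb*, the receptor of PDGF-D, and 80.6% had 20 of *Pdgfra*. Of the fibroblasts with fewer counts of *Pdgfd*, 61.7% had 20 of *Pdgfrb* and 73.9% of *Pdgfra*. Of the 24 cells of cluster 8 with 20 counts of *Pdgfc*, 1 had *Pdgfra* and 7 had *Pdgfrb*, where 3 and 19 of all 56 cells of the cluster did. These are counts of transcripts in 1 cell and do not measure protein or signalling.

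The reporter lines were compared within cluster 1, the largest fibroblast cluster, over its plates. Here the plates of a line stand as its samples, and since the labels name no mouse, plates of 1 line may share one, so these p-values measure the spread between plates and not between lines or mice. *Pdgfra* was 157.6, 174.3, 74.8 and 110.2 on the 4 PdgfrbGFP plates, 174.9 and 199.9 on the Acta2GFP plates, and 110.95 and 299.5 on the PdgfraGFP plates. The PdgfraGFP plates thus held the highest value and 1 of the lower ones, and the log2 fold change against PdgfrbGFP was 0.43 (SE 0.40, adjusted p = 0.878). *Pdgfrb* was 281.4, 302.7, 138.7 and 144.5 on the PdgfrbGFP plates, 163.02 and 139.8 on the Acta2GFP plates and 153.6 and 117.4 on the PdgfraGFP plates. Its high value in the PdgfrbGFP line came from 2 of the 4 plates, while the other two were level with the other lines. The log2 fold change was -0.70 (SE 0.36, adjusted p = 0.708) for PdgfraGFP and -0.63 (SE 0.36, adjusted p = 1) for Acta2GFP against PdgfrbGFP. In cluster 5, *Pdgfrb* was 201.3, 149.9 and 193.9 on 3 PdgfrbGFP plates and higher on the other one, 201.4 on the Cspg4dsRED plate, 98.1 and 81.2 on the Acta2GFP plates and 85.2 on the PdgfraGFP plate with at least 10 cells. The second PdgfraGFP plate, with 6 cells, had 172.3, so the PdgfraGFP and PdgfrbGFP plates overlapped. With that plate included, the log2 fold change of *Pdgfrb* against PdgfrbGFP in cluster 5 was -0.52 for PdgfraGFP (adjusted p = 0.726 by edgeR) and -1.24 for Acta2GFP (adjusted p = 1).

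No gene was called between lines in cluster 1 by edgeR, 0 of 15700 (0% of genes) in both comparisons, with 1060 genes at an unadjusted p under 0.05 for PdgfraGFP and 2.77% of genes for Acta2GFP, and 420 and 26 called by DESeq2. *Pdgfb* was below the filter on low counts. *Pdgfd* was 64.2 and 5.18 on the PdgfraGFP plates, and *Pdgfa* ran from 0.323 to 12.5 on the PdgfrbGFP plates. Plates differed in depth as well, with a median of 68394 to 891492 gene counts per cell of cluster 1 on the PdgfrbGFP plates. Its part in these levels was not tested.

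**Figure D4:**
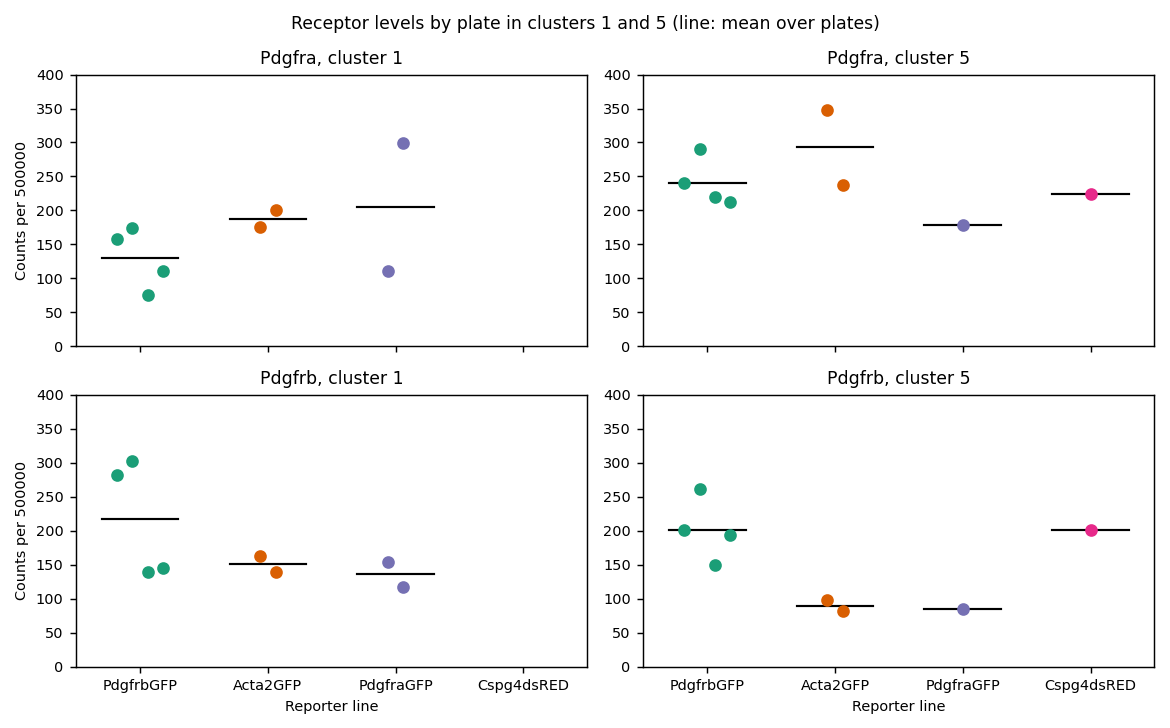
*Pdgfra* and *Pdgfrb* by plate and reporter line in clusters 1 and 5, in counts per 500000 (axis from 0). Each point is a plate with at least 10 cells of the cluster and each line the mean over plates. In cluster 1, *Pdgfrb* is 281.4 and 302.7 on 2 PdgfrbGFP plates and 117.4 to 163.02 on the other 6 plates.

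The wider PDGF pathway was described with a list of 37 genes, all of which were tested. Between fibroblasts and mural cells 4 genes were higher and 0 lower in fibroblasts (10.8% against 6.57% of all genes), with a median log2 fold change of 0.26 against -0.03 over all genes. Among 5 genes of ligand processing, 2 passed: *Pcsk5*, a proprotein convertase (3.65, SE 0.61, adjusted p = 0.00783), and *Plat*, the tissue plasminogen activator that cuts PDGF-C (1.72, SE 0.32, adjusted p = 0.0122). *Lrp1*, an endocytic co-receptor that binds PDGFRβ, was higher by 2.10 (SE 0.40, adjusted p = 0.0135), and *Pik3r2*, a regulatory subunit of PI3 kinase, by 1.51 (SE 0.31, adjusted p = 0.0197). None of the 10 brakes of the pathway, among them the Sprouty genes and the phosphatases, passed. *Cspg4*, which encodes a proteoglycan that binds PDGF-A, had -3.18 (SE 0.88, adjusted p = 0.0652).

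At the crypt apex, where *Pdgfra* was highest, 5 of the 37 genes were higher and 3 lower than in clusters 1, 5 and 7 (21.6% against 6.28% of all genes, median 0.09 against -0.09). *Plau*, the urokinase that cuts PDGF-D, was 428.4 in PdgfrbGFP, 330.1 in Acta2GFP and 382.5 in PdgfraGFP, against 2.60 to 22.4 in the lower clusters (5.91, SE 0.47, adjusted p = 2.6e-07). Of the 10 brakes, 3 were higher: *Spry1* (2.85, SE 0.47, adjusted p = 5.5e-04), *Spry4* (2.69, SE 0.42, adjusted p = 3.5e-04) and the phosphatase *Ptpn1* (1.48, SE 0.38, adjusted p = 0.0231). *Spry4*, a feedback inhibitor of receptor tyrosine kinase signalling, was 84.2, 72.2 and 57.6 in those lines against 5.48 to 22.6 in the lower clusters. Of 17 signal transducers, the adaptor *Nck2* was higher (3.78, SE 1.09, adjusted p = 0.0416) and the docking protein gene *Gab1* lower (-2.33, SE 0.69, adjusted p = 0.0495). *Pcsk5* (-2.81, SE 0.64, adjusted p = 0.00976) and *Lrp1* (-2.07, SE 0.31, adjusted p = 2.3e-04) were lower as well. Beyond these, 1 was higher (*Ptpn2*) and 1 lower (*Pcsk5*) in cluster 6, *Plat* was higher in cluster 7 than in cluster 1, and *Lrp1* and *Sparc* were higher in pericytes than in vascular SMC. The 1 Acta2GFP sum of cluster 8 had more *Pcsk5* and *Plau* and less *Spry4* than the 3 sums of cluster 3 (adjusted p under 0.05). These called genes were 5.41% of the list in cluster 6, near the 4.49% of all genes, 2.70% in cluster 7 (0.488% of all genes), 5.41% in pericytes (0.819%) and 8.11% in interstitial SMC (1.01%), which is 1 to 3 genes each. The spread of the cluster 8 sum is taken from the other clusters and the line is part of the contrast, so these 3 calls are no test between the cell types. *Ptpn2* and *Sparc* are named because the counts were small, after their values were seen.

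The genes most like each member were sought over the 21 sums, among 8283 genes, by Pearson's r of log2(counts per 500000 + 1). The sums of a line share plates, so r is a description. *Pdgfra* was followed most closely by *F3*, the tissue factor gene (r = 0.956), *Ctsh* (0.935) and *Pdpn*, which encodes podoplanin (0.932). *Pdgfrb* was nearest to *Pcdh1* (0.887), *Chn1* (0.876) and *Cyp4b1* (0.857). For the ligands the nearest genes were *Elovl5* (0.895), *Esam* (0.886) and *Trarg1* (0.881) for *Pdgfa*, *Hey2* (0.987), *Fam81a* (0.983) and *Slc38a11* (0.980) for *Pdgfb*, and the calponin gene *Cnn1* (0.835), *Cdh6* (0.827) and *Dctn6* (0.826) for *Pdgfc*. *Pdgfd* was nearest to *B3gnt9* (0.884), *Sec24d* (0.847) and *Sc5d* (0.842). *Hey2*, a Notch target of arterial smooth muscle, averaged 101.5 in cluster 3, 29.4 in cluster 4 and at most 0.408 elsewhere.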

How the data were processed

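Single-cell counts of 1646 colon cells from 4 reporter lines and 9 plates were analysed. The authors trimmed and mapped reads to GRCm38 with TopHat2, removed what the methods call doublets with samtools, and used featureCounts for the raw counts of each gene and cell that were deposited. The 92 ERCC rows (1.36% of counts) were left out. No count of any gene exceeded 2 times its exon bases (highest ratio 1.96, members 0.0566 to 0.448). Line, plate and cluster were taken from the labels, with the study's filters and no further removal of cells. Symbols, positions and exon lengths came from GENCODE vM21, promoters from RefSeq, without an entry for *Pdgfb*.

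Counts were summed per line with at least 10 cells of a cluster or class (21 sums by cluster, 2202988 to 85478239 counts), or per plate within cluster 1. Sums were tested with edgeR 4.0.16 in R 4.3.3 (TMM, filterByExpr, quasi-likelihood test, Benjamini-Hochberg adjustment over all genes, threshold 0.05). The procedure was tested on simulated data. Standard errors are the log2 fold change over the square root of F. Shares have 95% Clopper-Pearson intervals, and 3 counts of the total set the limit where a share is 0. Thinned shares leave out 11 cells under 50000 counts. Alternatives were DESeq2 1.42.0, no filter, a block for the line, sums from 3 cells on, sums by plate, cluster 5 (plates with at least 5 cells) in place of cluster 1, other limits and averages, and each line or plate left out. Python 3.11.15, numpy 2.4.6, pandas 2.3.3, scipy 1.17.1 and matplotlib 3.10.9 were used.

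Named genes were the 6 members, markers, pathway genes with an adjusted p under 0.05 and an absolute log2 fold change of at least 1, and for each member the 3 genes of highest correlation with a mean level of at least 10. The list of *Cdh5* and other endothelial markers, the pathway list and the members were chosen with earlier results of these data known. The steps between neighbouring clusters share 1 background value, pooled over the pairs.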

Additional observations from a re-analysis of the deposited data

Results flagged for a closer look

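Among the PdgfrbGFP plates of cluster 1, the level of *Pdgfc* on plate_075s was 1.67 counts per 500000, while the other 3 plates had 0.0712, 0 and 0, so this plate stood apart from the rest. It rested on 1 cell with 130.3, without which the plate had 0.291. Of 24 groups of plates or of lines tested in this way, 1 was singled out, and chance gives about 1 in 20.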

How the results depend on the processing

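Of 566 member values under alternatives, 54 changed: 15 lost and 15 gained a call, and 24 turned sign. The fibroblast and mural comparison called 6.57% of genes, 16.5% with DESeq2, 2.99% with the line as a replicate block, 16.1% with plates and 1.81% to 5.81% without 1 line. The F test called 16.6%, 32.9% with DESeq2 and with plates and 6.42% to 13.8% without 1 line. Cluster 2 called 6.28%, 11.9% with DESeq2 and 2.001% to 7.41% without 1 line. Cluster 6 called 4.49%, 16.3% with DESeq2 and 0.605% to 6.49% without 1 line. Cluster 7 called 0.488%, 3.57% with DESeq2, 0.773% with the block, 2.61% with plates and 0.0709% to 0.813% without 1 line. Cluster 4 called 0.819%, 7.66% with DESeq2, 2.70% with plates and 0.226% to 0.974% without 1 line. Cluster 8 called 1.01%, 7.02% with DESeq2, 1.92% with at least 3 cells, 3.84% with plates and 0.485% to 1.64% without 1 line (none could be had without Acta2GFP). Between lines, 0% became 3.08% (DESeq2), 0.0410% (no filter) and 0 to 0.0280% (without 1 plate) for PdgfraGFP, and 0.190% and 0.0186% for Acta2GFP. Same-line sums deviated together in part (r 0.0883 to 0.122 in 3 pairs, and -0.000193 to 0.152 in 43 pairs by cluster, against medians of -0.0483 and -0.0275 between lines). The fits reported first had no block for the line and so left this pairing out. With the replicate block the adjusted p was 0.0685 for *Pdgfb* in fibroblasts against mural cells, 0.0568 for *Pdgfra* (2.10) and 0.0106 for *Pdgfrb* (1.05) in cluster 2, and 0.038 for *Pdgfc* in cluster 4. *Pdgfc* and *Pdgfd* passed between fibroblasts and mural cells with DESeq2 (0.0182 and 0.00206) and plates (0.0125 and 0.0278), as did *Pdgfra* in cluster 4 with plates (0.00815). Values that turned sign belonged to results that had not passed. In cluster 2 *Pdgfd* was -0.07 with the block, -0.12 with at least 3 cells, -0.01 with plates and -0.07 to 0.46 without 1 line, and *Pdgfb* -2.08 to 1.34. *Pdgfd* in cluster 6 was -1.61 with plates and -0.96 to 2.07 without 1 line, and in cluster 8 -0.38 with the block and -0.05 with at least 3 cells. *Pdgfb* in cluster 7 was 0.64 with plates and -2.32 to 0.03 without 1 line. In cluster 4, without 1 line, *Pdgfra* was -3.78 to 4.30, *Pdgfa* -0.06 to 0.46 and *Pdgfd* -3.29 to 0.57. Between lines, *Pdgfra* of PdgfraGFP was -0.49 in cluster 5 (plates with at least 5 cells) and -0.31 to 0.90 without 1 plate, *Pdgfd* -2.56 to 1.05, and *Pdgfd* of Acta2GFP 1.14 in cluster 5 and -0.58 to 0.04 without 1 plate. Leaving out the 17 cells of cluster 4, chosen after seeing the data, turned *Pdgfra* there to -1.25, and to -1.09 with 4 such cells of cluster 3 left out as well. Both receptors were found in 88.1% of fibroblasts, 48.7% at 20 counts, 20.5% at 100, 73.7% after thinning and 82% as the mean of lines, and in 42.8%, 4.42%, 1.18% and 18.6% of mural cells. *Pdgfrb* in cluster 4 (1135) was 983 pooled, 1019 as a median, 1100 with spike-ins and 1207 without the 17 cells. *Pdgfb* in cluster 3 (13.5) was 16.95 pooled and 0 as a median, and *Pdgfc* in cluster 8 (118.9) was 112.03 and 37.3. The causes were not tested. At-least-3-cell sums did not differ for fibroblasts and mural cells.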
